A study of Sus scrofa with 20 samples.

Results

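S100A8 and S100A12 are the 2 calcium-binding alarmins described here, 2 of the 19280 genes counted in pig skin. They were taken from the deposited gene table by symbol (S100A8, ENSSSCG00000006590; S100A12, ENSSSCG00000032857), and they were selected on their measured levels in these libraries, which differ between skin sites, so their site differences are given as a description without a test. Alarmins are proteins that cells release when stressed or damaged. S100A8 pairs with S100A9 to form calprotectin, which binds zinc and manganese and so withholds them from microbes, and S100A12, or calgranulin C, binds zinc and copper. In human studies the released proteins signal through the receptors TLR4 and AGER (RAGE). Neutrophils and monocytes hold large amounts of them, and human keratinocytes make them in inflamed, wounded or thickened epidermis. S100A9 was not analysed here.

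RNA of 4 mm skin biopsies was sequenced from 4 sites of each of 5 wild-type female Yorkshire pigs, giving 20 libraries. The sites were the weight-bearing volar foot skin (sole), the snout, the dorsal foot skin (upper foot) and the trunk skin of the flank. No pig was treated, and the pigs differed in age, at 4, 8 and 7 months for the 12 libraries of a first numbered set and at 6 and 5 months for the 8 libraries of a second set. Each site has 1 library per pig, the site comparisons are all within the same animals, and age cannot be told apart from the animal. The main fit had no term for the pig, so its tests and SEs do not use the pairing of sites within an animal. Fits with the pig as a block are given as alternatives. The biopsies are bulk skin, so fewer cells of a type and less RNA per cell cannot be told apart in any value below.

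The site labels of the sets disagree. Within the first set the labels were used as given. In the second set the libraries labelled flank, volar, dorsal and snout were taken as sole, snout, flank and upper foot, because each of those 8 libraries was most like that site of the first set (Pearson r of 0.773 to 0.873 over the 2000 most variable genes). The match to the second most like site was far lower for the soles and snouts (0.002 to 0.041) but closer for the haired sites, at 0.623 to 0.746 for the flanks and 0.636 to 0.682 for the upper feet. With the S100 genes, keratins and all listed genes left out each library had the same most like site, at r of 0.758 to 0.869. EN1, a transcription factor of ventral limb skin, ran from 9.14 to 14.8 CPM in first-set soles and 14.7 to 19.99 CPM in the second-set libraries taken as sole, against at most 3.36 CPM in any other library. The depth ran from 34077861 to 66906489 counts per library. The smallest count of either gene was 28, for S100A8 in the flank of the 4-month pig, so both genes passed the filter on low counts at every site. Levels are in CPM (counts scaled to a common library total) after TMM scaling, a correction for differences in RNA composition between libraries. Gene lengths were not available, so the level of S100A8 is not compared with that of S100A12.

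S100A8 was highest in the sole, lower in the snout and lowest in both haired sites. In the sole it had 3285, 2394, 3742, 9406 and 5277 CPM in the pigs aged 4, 8, 7, 6 and 5 months. In the snout the same pigs had 52.9, 34.5, 188, 173 and 370 CPM. Every sole library was above every snout library, and every snout library was above every upper foot and flank library. S100A8 had 2.03, 3.60, 10.0, 5.22 and 1.94 CPM in the upper foot of the pigs in the same order. It had 0.648, 2.64, 1.87, 2.66 and 7.57 CPM in the flank. The upper foot and flank libraries overlapped, and the 5-month pig, with the highest flank value, had the lowest upper foot value.

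The means were 4821 ± 2768 CPM in the sole, 164 ± 134 CPM in the snout, 4.56 ± 3.34 CPM in the upper foot and 3.08 ± 2.64 CPM in the flank (SD, n = 5 each). The fitted log2 difference was 10.61 ± 0.96 for sole minus flank, 10.04 ± 0.93 for sole minus upper foot and 4.88 ± 0.75 for sole minus snout (SE, edgeR). These are 1560-fold, 1050-fold and 29.5-fold higher levels in the sole, and the sole was the higher site in 5 of 5 pigs each time. Each edgeR SE was taken as the size of the log2 difference over the square root of its F statistic. Other fits gave smaller SEs for sole minus flank, 0.69 by DESeq2 and 0.77 with the pig as a block. The differences within the 5 pigs averaged 10.51 with an SD of 1.03. Between the other sites the log2 difference was 5.73 ± 0.78 for snout minus flank, with the snout higher in 5 of 5 pigs. Upper foot minus flank was 0.57 ± 0.65, less than its standard error, with the upper foot higher in 4 of 5 pigs. S100A8 therefore has 3 levels that do not overlap, and the 2 lowest sites are not separated by the spread between pigs.

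S100A12 followed the same order. In the sole it had 4388, 3910, 5251, 16839 and 8960 CPM in the pigs aged 4, 8, 7, 6 and 5 months. In the snout it had 141, 71.5, 362, 465 and 701 CPM. The sole and snout ranges did not overlap, and the 8-month pig was the lowest in both sites. In the upper foot S100A12 had 6.71, 11.7, 20.7, 15.3 and 9.69 CPM, and in the flank 2.29, 6.62, 5.04, 7.80 and 15 CPM. Both haired sites were below every snout library and overlapped each other, as for S100A8.

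The S100A12 means were 7869 ± 5392 CPM in the sole, 348 ± 254 CPM in the snout, 12.8 ± 5.41 CPM in the upper foot and 7.35 ± 4.75 CPM in the flank (SD, n = 5 each). The log2 difference was 10.06 ± 0.82 for sole minus flank, 9.26 ± 0.80 for sole minus upper foot and 4.50 ± 0.64 for sole minus snout (SE). On a linear scale the sole was 1070-fold, 614-fold and 22.6-fold higher, in 5 of 5 pigs each. Snout minus flank was 5.56 ± 0.68 and upper foot minus flank was 0.80 ± 0.57 on the log2 scale. The flank and upper foot of the 4-month pig had the lowest S100A12 levels of their sites.

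**Figure D1:**
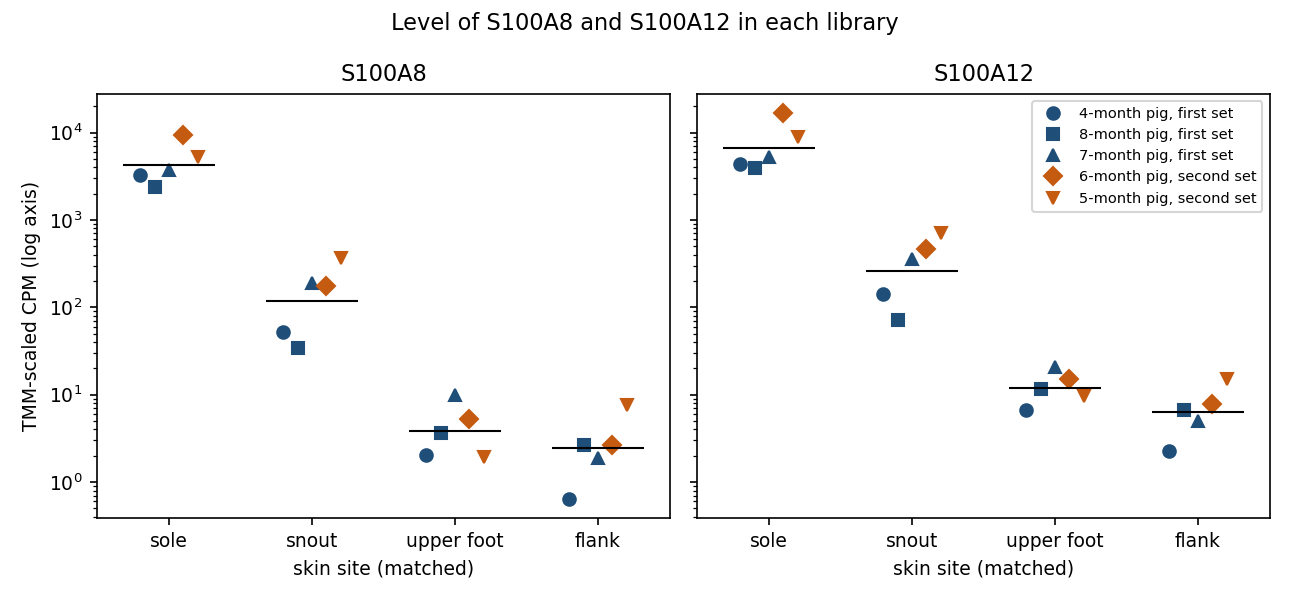
Level of S100A8 (left) and S100A12 (right) in each of the 20 libraries, in TMM-scaled CPM on a log axis, by matched skin site. Each symbol is 1 pig, blue for the first set and orange for the second, and the line is the mean on the log scale; the sole, the snout and the pair of haired sites form 3 bands that do not overlap, from 2394 to 9406 CPM in the sole to 0.648 to 7.57 CPM in the flank for S100A8.

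Together both genes took 0.825 ± 0.400% of all counts in the sole, 0.0546 ± 0.0406% in the snout, 0.00214 ± 0.00115% in the upper foot and 0.00111 ± 0.000694% in the flank (SD, n = 5 each). Of all genes tested, 6.87% had every sole library above every library of the other 3 sites. The full order of these genes, sole above snout above both haired sites with no overlap, was met by 1.59% of genes. Both shares describe the background of the pattern on which the genes were chosen, and nothing is read from them.

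Within the sole, both second-set libraries were above the 3 first-set libraries on the TMM scale, at 7341 ± 2920 CPM (SD, n = 2) against 3140 ± 686 CPM (SD, n = 3) for S100A8. TMM factors were lower in sole libraries (0.569 to 0.812) than in the others (0.981 or more). Without TMM scaling, S100A8 in the sole had 5401 and 3002 CPM in the 6- and 5-month pigs, against 2432, 1925 and 3039 CPM in the first set, so that the sets overlapped. S100A12 had 9669 and 5097 CPM in the same pigs of the second set without TMM scaling, against 3248, 3144 and 4265 CPM in the first set, and there the sets did not overlap. The order of the site means was the same without TMM scaling: the plain CPM means of S100A8 were 3160 in the sole, 174 in the snout, 5.67 in the upper foot and 3.25 in the flank. Those of S100A12 were 5085, 371, 15.8 and 7.86 CPM.

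The difference between sole and flank was also compared between the sets, a contrast on which the genes were not chosen. Sole minus flank in the second set was lower than in the first by 0.34 ± 1.13 for S100A8 and higher by 0.22 ± 0.87 for S100A12 (log2, SE; edgeR adjusted p = 0.912 and 0.931). Neither gene was called, and the standard errors leave room for a difference of more than 2-fold either way. Of all 15735 genes tested, 0.941% were called in this comparison, 148 genes, and 342 genes with the pig as a block. Leaving out the 4-, 6- or 5-month pig left 3, 11 or 15 genes.

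With the labels exactly as deposited, the levels were mixed. S100A8 then averaged 1993 ± 1646 CPM in libraries labelled volar, 56.5 ± 76.4 CPM in those labelled snout, 5.18 ± 3.46 CPM in those labelled dorsal and 2938 ± 4277 CPM in those labelled flank (SD, n = 5 each). The 2 second-set libraries labelled flank are those at 9406 and 5277 CPM, and the 3 first-set libraries labelled flank are at 0.648, 2.64 and 1.87 CPM. S100A12 averaged 2943 ± 2209 CPM under the label volar, 119.9 ± 145 CPM under snout, 12.4 ± 5.70 CPM under dorsal and 5163 ± 7592 CPM under flank. Under those labels the log2 difference of volar minus flank was -0.56 for S100A8 and -0.81 for S100A12, so the direction of this comparison rests on the matched sites in the second set. Within the first set alone, where labels were used as given, sole minus flank was 10.82 for S100A8 and 9.92 for S100A12.

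The 2 genes did not keep the same proportion to each other. The ratio of S100A8 to S100A12 counts in a library needs no scaling between libraries. It was 0.749, 0.612, 0.713, 0.559 and 0.589 in the sole of the pigs aged 4, 8, 7, 6 and 5 months, and 0.374, 0.483, 0.519, 0.373 and 0.527 in the snout. In the haired sites it ran from 0.201 to 0.484 in the upper foot and from 0.283 to 0.505 in the flank. Every sole library was above every library of the other sites, and the other 3 sites overlapped. The means were 0.644 ± 0.082 in the sole, 0.455 ± 0.077 in the snout, 0.327 ± 0.102 in the upper foot and 0.380 ± 0.082 in the flank (SD, n = 5 each). The deposited counts of S100A8 were whole numbers in 20 of 20 libraries and those of S100A12 in 0 of 20 (tolerance 0.000000001), and values that are not whole arise where reads are divided between features by estimate. The error this adds to the ratio was not tested.

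**Figure D2:**
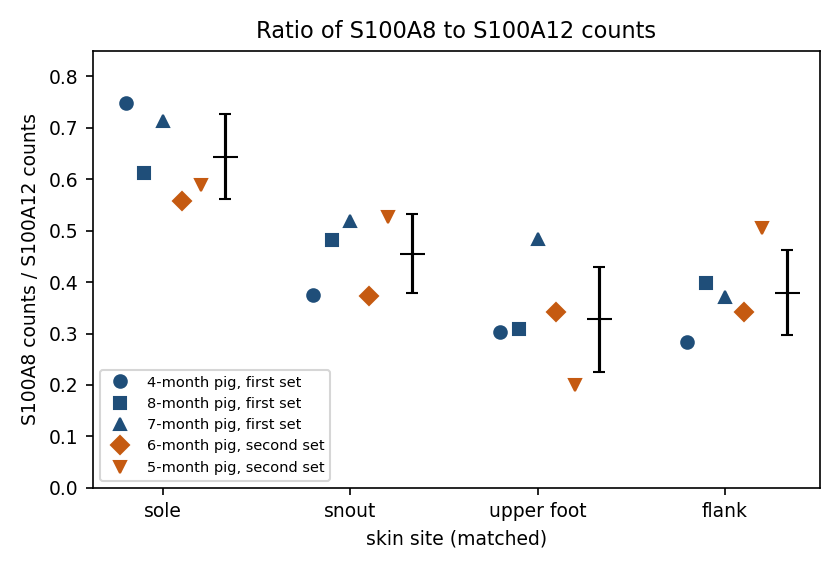
Ratio of S100A8 counts to S100A12 counts in each library, by matched site; symbols are pigs, blue for the first set and orange for the second, and the bars to the right give the mean ± SD of 5 libraries. The lowest sole library, at 0.559, is above the highest library of any other site, at 0.527.

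Over the 20 libraries the gene most like S100A8 was S100A12, and the reverse, with a Pearson r of 0.998 for log2(CPM + 0.5), out of 10395 genes compared. After the mean of each site was subtracted r was 0.97, still the highest for both genes. These libraries share pigs, and r over all of them mostly follows the differences between sites. The next genes after S100A12 were the same for both: KIF26A (r = 0.977 with S100A8, 0.981 with S100A12), DACT2 (0.977, 0.979), TMEM160 (0.974, 0.974), COPS6 (0.972, 0.978) and the keratin KRT78 (0.970, 0.976). S100A8 also had GLRX3 (0.966) and ATP6V1A (0.964) in its first 8, and S100A12 had PPP1R14B (0.970) and YWHAZ (0.967).

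A like pattern did not mean a like size of difference. KRT78, a keratin of the differentiating epidermis, averaged 3786 CPM in the sole, 163 CPM in the snout, 10.9 CPM in the upper foot and 3.53 CPM in the flank. DACT2 averaged 94.1, 16.3, 3.21 and 1.56 CPM in the same order of sites. COPS6, a subunit of the COP9 signalosome, averaged 100.8 CPM in the sole, 71.0 CPM in the snout, 53.3 CPM in the upper foot and 47.0 CPM in the flank. After subtracting site means, the next genes were MRPL15 (0.83), RHEB (0.813) and CDV3 (0.807) for S100A8 and ARIH2 (0.872), CDV3 (0.869) and SPTLC2 (0.869) for S100A12.

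Among the other S100 genes S100A14 had the same order of sites, with smaller differences. Of 9 tested, 1 rose in the sole against the flank, 2 fell and 6 were not called (edgeR quasi-likelihood test, Benjamini-Hochberg adjusted p under 0.05 over 15275 genes). Of all genes, 51.9% were called in this comparison, 24.2% higher and 27.7% lower in the sole. The median log2 difference of the 9 was -0.04, the same as over all genes (-0.04). The same 1 rose and the same 2 fell against the upper foot, where 45.6% of all genes were called (23% higher, 22.6% lower), and against the snout, where 36% were called (16.9% higher, 19.1% lower). Against the snout 0 rose and 1 fell within the first set or without 3 snout libraries that hold skeletal muscle genes. S100A14, an epithelial S100 protein, averaged 1052 ± 178 CPM in the sole, 660 ± 130 CPM in the snout, 227 ± 55.4 CPM in the upper foot and 185 ± 59.4 CPM in the flank. It rose in the sole against the flank (log2 2.51 ± 0.22, adjusted p = 6.31e-08) and against the snout (0.67 ± 0.21, adjusted p = 0.0177). It also rose in the snout against the flank (1.83 ± 0.22, adjusted p = 5.56e-06), where 13.6% of all genes were higher and 11.8% lower in the snout.

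S100A3, a protein of the hair cuticle, fell to 0.426 ± 0.150 CPM in the sole, against 204 ± 145 CPM in the flank (log2 -8.86 ± 0.94, adjusted p = 4.75e-07). S100A1, best known from heart and skeletal muscle, averaged 2.26 ± 1.06 CPM in the sole and 25.7 ± 18.2 CPM in the flank (-3.51 ± 0.78, adjusted p = 0.000922). S100A4, S100A6, S100A10 and S100A11, which are broadly expressed, had log2 differences of -0.59, -0.33, 0.77 and 0.30 that were not called. S100A11 was called with the pig as a block (0.32, adjusted p = 0.0421) and within the first set (0.50, adjusted p = 0.00795), and S100A4 within the second set (-1.03, adjusted p = 0.0193). S100A5 had 45 counts over all libraries and was not tested, and S100A2, S100A7, S100A13 and S100A16 were not analysed here.

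In the RefSeq gene order of the pig assembly Sscrofa11.1, S100A8 and S100A12 lie next to each other, with S100A9 next and the peptidoglycan recognition genes PGLYRP4 and PGLYRP3 after it. The genes up to 20 places away on either side were listed after the levels of S100A8 and S100A12 were seen. Of the 16 tested, 7 rose and 4 fell in the sole against the flank, where 24.2% of all genes rose and 27.7% fell. PGLYRP4 rose to 78.8 ± 50.8 CPM in the sole, against 11.1 ± 3.03 CPM in the flank (log2 2.83 ± 0.30, adjusted p = 5.20e-07). PGLYRP3 rose to 32 ± 7.99 CPM, against 5.62 ± 1.56 CPM in the flank (2.51 ± 0.24, adjusted p = 1.37e-07). Both encode secreted proteins that bind bacterial cell walls. On the other side, the nearest measured genes S100A6 and S100A4 were not called and S100A3 fell, so the neighbours of the 2 alarmins did not move one way.

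**Figure D3:**
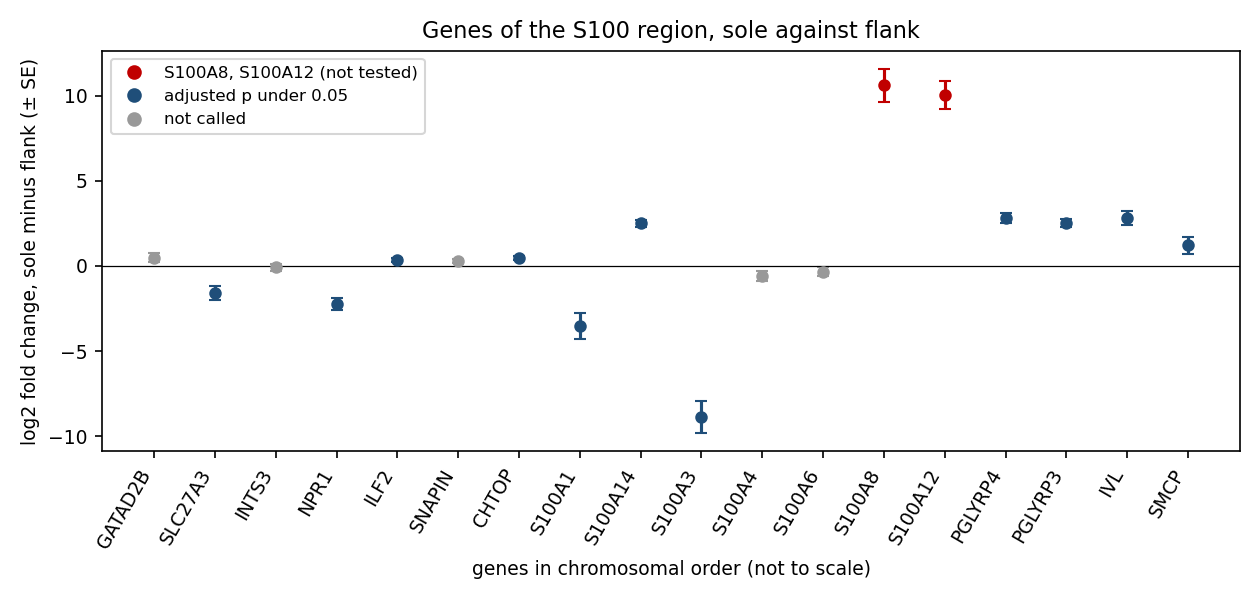
Log2 difference of sole minus flank (± SE, edgeR) for the measured genes around S100A8 and S100A12, in RefSeq Sscrofa11.1 gene order and not to scale; genes without a value are left out. S100A8 and S100A12 (red, not tested) stand at 10.61 and 10.06, PGLYRP4 next to them at 2.83 and S100A3 at -8.86.

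Further along the same region lie genes of the cornified envelope, the protein shell of dead surface keratinocytes. They were listed with other genes of the region, among them SMCP, which is not a gene of the cornified envelope. Of the 26 listed, 4 were found by symbol in the table, where 14821 of 19280 identifiers have one. IVL (involucrin) rose to 895 ± 523 CPM in the sole, against 125 ± 50.2 CPM in the flank (log2 2.83 ± 0.42, adjusted p = 1.75e-05). TCHHL1, a trichohyalin-like gene, had 0 counts in the 5 sole libraries, against 112 ± 90.5 CPM in the flank, at least 6760-fold lower if 3 counts over the sole libraries are taken as the limit. CRNN (cornulin), a gene of mucosa-like epithelium, had 3.35 ± 1.45 CPM in the sole and 6.27 ± 2.40 CPM in the flank (-0.92 ± 0.32, adjusted p = 0.0224) and 414 ± 145 CPM in the snout. SMCP had 0.658 ± 0.442 CPM in the sole and 0.280 ± 0.115 CPM in the flank (1.22 ± 0.50, adjusted p = 0.0475). The CRNN call was lost without the 8- or the 6-month pig (adjusted p = 0.0626 and 0.0912). The SMCP call was lost without any 1 of the pigs aged 8, 7, 6 or 5 months, and with the pig as a block (adjusted p = 0.0617).

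Of 18 tested receptors and partners of the alarmins, 2 rose and 11 fell in the sole against the flank, where 24.2% of all genes rose and 27.7% fell, with a median log2 difference of -0.58 against -0.04 over all genes; within the first set 2 rose and 6 fell, and without the 5-month pig 2 rose and 7 fell. TLR4, the receptor of calprotectin, rose to 75.5 ± 23.6 CPM in the sole, against 42.3 ± 10.6 CPM in the flank (0.84 ± 0.23, adjusted p = 0.00464), and was not called in the second set alone (adjusted p = 0.0563). IRAK1, a kinase downstream of TLR4, rose to 58.8 ± 23.6 CPM, against 15.4 ± 2.67 CPM in the flank (1.93 ± 0.21, adjusted p = 5.43e-07). CD14, the co-receptor of TLR4, fell to 7.00 ± 2.08 CPM, against 18.1 ± 5.38 CPM in the flank (-1.37 ± 0.21, adjusted p = 2.94e-05). ALCAM, a cell adhesion molecule (-1.40 ± 0.15, adjusted p = 5.12e-07), and the annexin ANXA6 (-1.93 ± 0.32, adjusted p = 6.84e-05) also fell. AGER, which encodes RAGE, had 80 counts over the 20 libraries and was not tested.

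Of 25 tested transcription factors and cofactors that act on alarmin or epidermal genes, 9 rose and 3 fell in the sole against the flank. Over all genes 24.2% rose and 27.7% fell, and the median of the list was 0.22 against -0.04 over all genes. The count of the list rested on the second set: within the first set 1 rose and 4 fell, within the second 12 rose and 3 fell. Among all genes the first set called 2588 higher and 2444 lower, and the second set 3275 and 3865. Without the 6-month pig 4 of the list rose and 3 fell. Without the 7-month or the 5-month pig 6 of the list rose. The AP-1 members FOSL1 (8.33 ± 7.20 CPM in the sole and 0.782 ± 0.251 CPM in the flank; log2 3.41 ± 0.65, adjusted p = 0.000248) and FOSL2 (1.09 ± 0.25, adjusted p = 0.00121) rose, as did ZNF750, a regulator of epidermal differentiation (1.07 ± 0.25, adjusted p = 0.00132). In the first set alone they had log2 differences of 2.31, 0.76 and 0.49 that were not called (adjusted p = 0.0522, 0.110 and 0.218). NFE2L2 (NRF2), a regulator of the oxidative stress response, fell (-1.06 ± 0.16, adjusted p = 1.97e-05).

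CEBPB, known to bind the S100A8 and S100A9 promoters in human and mouse myeloid cells, had 100.3 ± 41.3 CPM in the sole and 62.0 ± 8.43 CPM in the flank (log2 0.69 ± 0.23, adjusted p = 0.0164). Its call was lost without any 1 of the pigs aged 8, 7, 6 or 5 months (adjusted p = 0.0509 to 0.103). STAT3, a transducer of cytokine signals, had a difference of 0.35 ± 0.12 (adjusted p = 0.0164), and was not called without the 8-, 7- or 6-month pig. CEBPD was not called (-0.20 ± 0.39, adjusted p = 0.693).

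The IL-17, IL-36 and IL-1 cytokine systems induce alarmins in keratinocytes in human and mouse skin. Of their 24 tested genes, 6 rose and 11 fell in the sole against the flank (median -0.35). The rises were near the share of all genes, 24.2%, while 27.7% of all genes fell. Within the first set 4 rose and 7 fell, where 2588 genes in all were higher and 2444 lower. IL18, an IL-1 family cytokine made by keratinocytes, rose to 70.6 ± 35.1 CPM, against 8.61 ± 3.53 CPM in the flank (3.03 ± 0.36, adjusted p = 1.33e-06). IL17B, an IL-17 family ligand, rose to 80.5 ± 20.7 CPM, against 20.6 ± 6.28 CPM in the flank (1.97 ± 0.26, adjusted p = 5.32e-06). IL33 (-2.02 ± 0.25, adjusted p = 2.25e-06) and the receptor IL1R1 (-0.92 ± 0.14, adjusted p = 1.98e-05) fell. CXCL8, the neutrophil chemoattractant, fell to 0.166 ± 0.060 CPM, against 1.79 ± 2.10 CPM in the flank (-3.38 ± 0.65, adjusted p = 0.000257). IL17A had 45 counts over all libraries and was not tested, and IL1B and IL36G were not analysed here.

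Of 14 tested antimicrobial proteins of skin and neutrophils, 4 rose and 4 fell in the sole against the flank, near the shares of all genes (24.2% and 27.7%), with a median of -0.92 against -0.04 over all genes. Among those that rose was DEFB1, an epithelial beta-defensin, at 32.5 ± 8.34 CPM in the sole and 11.6 ± 2.43 CPM in the flank (1.48 ± 0.20, adjusted p = 5.21e-06), beside PGLYRP3 and PGLYRP4. LTF (lactoferrin), an iron-binding protein of secretions and neutrophil granules, fell to 0.961 ± 0.258 CPM, against 38.1 ± 37.1 CPM in the flank (-5.33 ± 0.85, adjusted p = 4.07e-05), and RNASE4 fell as well (-1.82 ± 0.17, adjusted p = 1.36e-07). LCN2, which withholds iron from bacteria, had 3.08 ± 0.815 CPM in the sole and 5.32 ± 1.77 CPM in the flank (-0.78 ± 0.36, adjusted p = 0.0783; 0.0477 with the pig as a block). The stress keratins KRT6A, KRT16 and KRT17 were not analysed here.

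No tested marker of the leukocytes that can hold S100A8 and S100A12 was called higher in the sole. Of 10 neutrophil markers tested, 0 rose and 5 fell against the flank in the edgeR test (median -0.86), where 24.2% of all genes rose and 27.7% fell. At an unadjusted p under 0.05 and by DESeq2, 0 of the markers were higher. Within the first set 0 of the markers rose and 1 fell, and without the 8-month pig 3 fell. Their summed level was 23.9 to 56.6 CPM in the sole, 36.3 to 83.9 CPM in the snout, 41.7 to 85.3 CPM in the upper foot and 46.4 to 75.7 CPM in the flank. AQP9, a channel of neutrophils and other cells, fell to 2.62 ± 1.13 CPM in the sole, against 26.6 ± 3.40 CPM in the flank (-3.32 ± 0.30, adjusted p = 7.33e-08). NCF4, a subunit of the phagocyte oxidase (-1.27 ± 0.26, adjusted p = 0.000425), PADI4 (-2.69 ± 0.66, adjusted p = 0.00214) and CSF3R, the G-CSF receptor (-1.88 ± 0.55, adjusted p = 0.00793; 0.0726 without the 8-month pig), fell too. The granule genes of the list were at or near 0: over the 20 libraries together MPO had 3 counts, ELANE 1, AZU1 2 and PRTN3 0. They were not tested, and nothing about the number of neutrophils is read from them.

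Of 14 macrophage and monocyte markers tested, 0 rose and 10 fell in the sole against the flank, within the first set 0 rose and 4 fell, and without the 5-month pig 5 fell. Their sum was 132 to 326 CPM in the sole and 275 to 692 CPM in the flank. T cell markers (0 of 10 rose, 3 fell), mast cell markers (0 of 5 rose, 3 fell) and Langerhans and dendritic cell markers (0 of 6 rose, 2 fell) likewise had no member that rose in edgeR, at an unadjusted p under 0.05 or by DESeq2. Within the second set alone 1 of 10 T cell markers was higher in the sole and 2 were lower. Among all genes that set called 3275 higher and 3865 lower. In the fit of all libraries 24.2% of all genes rose and 27.7% fell. The falls among T cell markers and among Langerhans and dendritic cell markers were near that share.

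Between pigs the neutrophil sum and the alarmins went together in some sites and not in others. The 5-month pig had the highest neutrophil sum in every site, at 56.6 CPM in the sole, 83.9 CPM in the snout, 85.3 CPM in the upper foot and 75.7 CPM in the flank. Its S100A8 level was the highest of the 5 pigs in the snout and the flank, the lowest in the upper foot, and below that of the 6-month pig in the sole. The 6-month pig, with the highest S100A8 in the sole, had a neutrophil sum of 24.7 CPM there. Without the 5-month pig sole minus flank was 11.23 ± 0.95 for S100A8 and 10.45 ± 0.89 for S100A12 (log2, SE). The part of neutrophils in the differences between pigs was not tested.

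**Figure D4:**
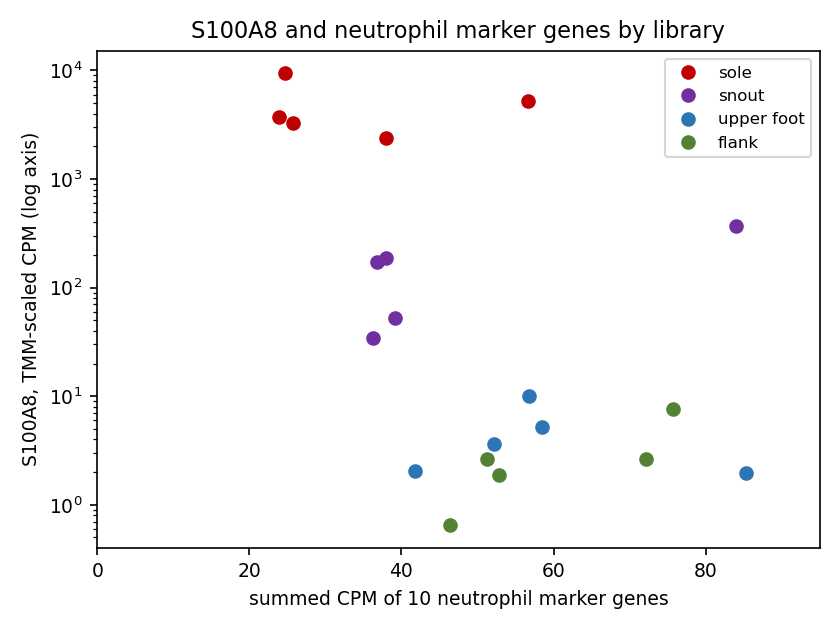
S100A8 level (TMM-scaled CPM, log axis) against the summed CPM of the 10 tested neutrophil marker genes in each of the 20 libraries, coloured by matched site. Sole libraries lie at 23.9 to 56.6 CPM of neutrophil markers and 2394 to 9406 CPM of S100A8, flank libraries at 46.4 to 75.7 CPM and 0.648 to 7.57 CPM.

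Most suprabasal keratinocyte markers were higher in the sole, as the alarmins were. Of 16 suprabasal markers, those of the differentiating upper epidermis, 14 rose and 2 fell in the sole against the flank. The median log2 difference was 2.44, and within the first set 12 rose and 2 fell. In the main comparison 24.2% of all genes rose and 27.7% fell. KRT78 (10.07 ± 0.71, adjusted p = 5.05e-09), KRT1 (5.06 ± 0.31, adjusted p = 8.49e-10) and KRT10 (4.90 ± 0.31, adjusted p = 1.34e-09) rose, as did the transglutaminase TGM3 (2.97 ± 0.25, adjusted p = 2.87e-08). Over the 20 libraries KRT2 and KRT77 alone in the list had a negative r with S100A8 (-0.60 and -0.70) and S100A12 (-0.62 and -0.71). Of 8 basal markers 5 rose and 1, KRT15, fell (-5.74 ± 0.71, adjusted p = 2.82e-06). COL17A1 (1.56 ± 0.20), ITGA6 (1.45 ± 0.17) and ITGB4 (1.76 ± 0.23), which anchor basal cells to the dermis, were among those that rose. All 10 fibroblast markers fell, with COL1A2 at -3.63 ± 0.49 (adjusted p = 6.51e-06).

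The sum of the basal keratinocyte markers was 4380 to 5534 CPM in the sole, 2736 to 4465 CPM in the snout, 2662 to 3668 CPM in the upper foot and 2002 to 3308 CPM in the flank. Per 100 CPM of that sum, the median S100A8 level was 85.4 CPM in the sole, 6.06 CPM in the snout, 0.125 CPM in the upper foot and 0.114 CPM in the flank. The sole median was 748-fold the flank median. For S100A12 the medians were 120 CPM, 11.7 CPM, 0.404 CPM and 0.287 CPM, with the sole 418-fold the flank.

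The suprabasal sum differed more between sites. It was 270584 to 632047 CPM in the sole, 26408 to 39169 CPM in the snout, 22280 to 35779 CPM in the upper foot and 16199 to 29170 CPM in the flank. The snout and upper foot ranges of this sum overlapped, while those of both alarmins did not. Per 10000 CPM of it, S100A8 had 88.5 to 149 CPM in the sole and 9.73 to 127 CPM in the snout. These sites overlapped on this scale through the muscle-bearing snout of the 5-month pig alone. S100A8 had 0.651 to 3.65 CPM in the upper foot and 0.236 to 4.61 CPM in the flank on this scale. Its sole median was 2.57-fold the snout median and 83.5-fold the flank median. S100A12 had 145 to 266 CPM in the sole, 20.2 to 241 CPM in the snout, 2.15 to 7.55 CPM in the upper foot and 0.835 to 9.14 CPM in the flank on the same scale, and the sole median was 1.45-fold and 43.2-fold those of the snout and the flank. After subtracting site means, r of the 16 suprabasal markers with S100A8 ran from -0.336 to 0.388 (median -0.092) and with S100A12 from -0.401 to 0.459 (median -0.043). The part of keratinocyte content in the site differences was not tested.

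**Figure D5:**
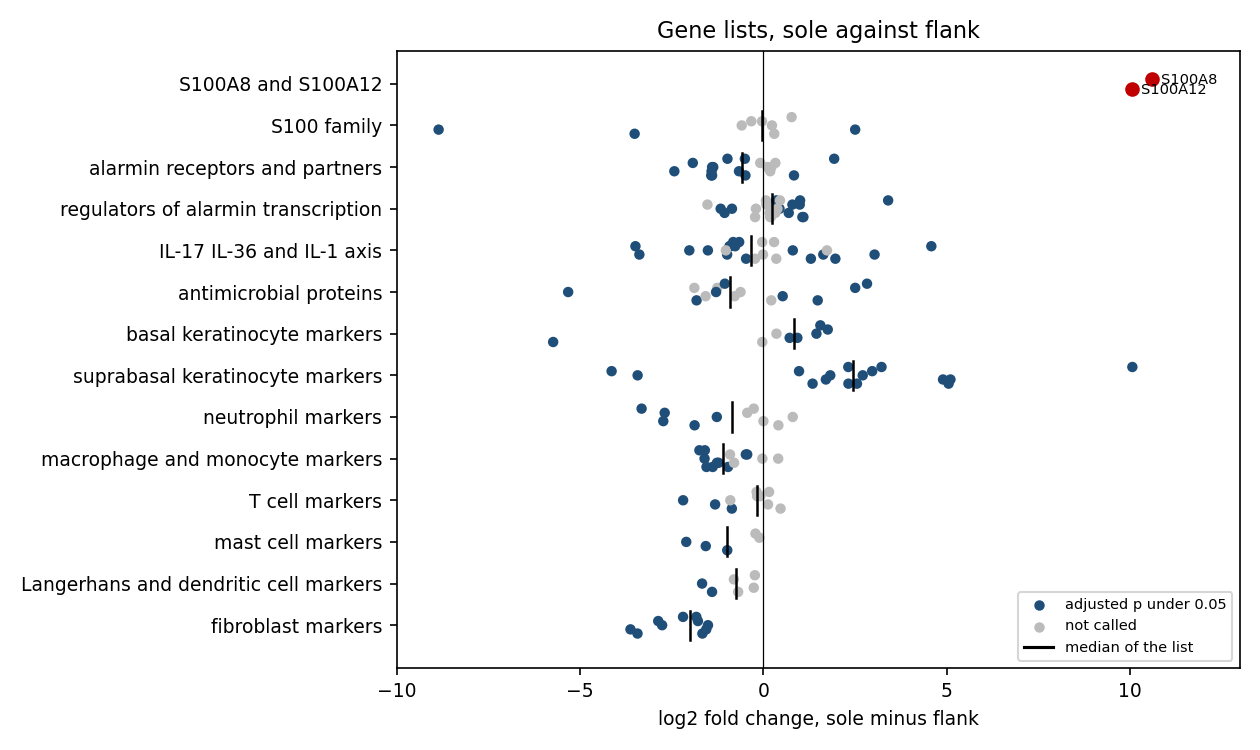
Log2 difference of sole minus flank (edgeR) for each tested gene of 13 lists, with S100A8 and S100A12 (red, not tested) in the top row; blue points have an adjusted p under 0.05, grey points were not called, and the black bar is the list's median. The suprabasal keratinocyte list has the highest median, 2.44, and KRT78 at 10.07 is its one gene near the alarmins, while no neutrophil or macrophage marker was called higher.

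Against the other sites the lists split as follows. Of all genes, 23% rose and 22.6% fell in the sole against the upper foot, and 16.9% rose and 19.1% fell against the snout. Of the 18 receptors and partners, 3 rose and 7 fell in the sole against the upper foot, and 4 rose and 4 fell against the snout. Of the 25 transcription factors, 8 rose and 3 fell against the upper foot, and 7 rose and 2 fell against the snout (12 and 2 with the pig as a block). Of the 24 cytokine system genes, 5 rose and 6 fell against the upper foot, and 7 rose and 4 fell against the snout. Of the 14 antimicrobial genes, 5 rose and 5 fell against the upper foot, and 4 rose and 5 fell against the snout. Of the 16 suprabasal markers, 14 rose in both comparisons. Within the first set 1 transcription factor rose against the upper foot and 2 against the snout. Of the receptors and partners 2 rose and 2 fell there against the upper foot, and 2 rose and 0 fell against the snout. The first set called 2142 genes higher and 1552 lower against the upper foot, and 873 and 895 against the snout.

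The leukocyte lists had no gene that rose in the sole against the upper foot or the snout, in edgeR, at an unadjusted p under 0.05 or by DESeq2. Against the upper foot, where 22.6% of all genes fell, 4 of 10 neutrophil and 7 of 14 macrophage markers fell. Within the first set the counts were 2 and 1. Against the snout, where 19.1% of all genes fell, 2 of 10 neutrophil and 10 of 14 macrophage markers fell. Those counts were 0 and 0 within the first set, and 1 and 2 without the muscle-bearing snouts described next. Without the 4-month pig 1 of 10 neutrophil markers was higher in the sole than in the snout and 2 were lower. Without the 8-month pig 1 was higher and 3 were lower. Among all genes 2794 were higher and 3208 lower in the first of these runs, and 2468 and 2963 in the other. In the second set alone, 2 of 11 neutrophil markers were higher in the sole than in the snout and 4 were lower. Of 10 T cell markers 3 were higher and 1 was lower there. Among all genes the second set called 2686 higher and 3198 lower in this comparison.

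In the snout against the flank, 1 of 18 receptors and partners rose and 5 fell, and 1 of 25 transcription factors rose and 2 fell. Over all genes 13.6% rose and 11.8% fell in this comparison. Of the cytokine system genes 3 rose and 7 fell, and of the antimicrobial genes 6 rose and 4 fell, among them LCN2 at 15.3 ± 7.72 CPM in the snout and 5.32 ± 1.77 CPM in the flank (1.52 ± 0.36, adjusted p = 0.00435). Of the 10 neutrophil markers 1 rose and 1 fell, and of the 16 suprabasal markers 7 rose and 3 fell. Without the muscle-bearing snouts, 0 of 26 cytokine system genes rose and 4 fell, and 2 of 14 antimicrobial genes rose and 2 fell. Among all genes 1061 were then higher and 853 lower in the snout, against 2082 and 1806 with all libraries.

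In the snout, skeletal muscle genes and the alarmins set the same 3 libraries apart, but differed in order among those 3. Of the 3, that of the 5-month pig had the lowest muscle sum and the highest level of both alarmins. The 9 tested muscle markers summed to 8906, 7032 and 4442 CPM in the snouts of the pigs aged 7, 6 and 5 months, against 9.03 and 10.5 CPM in those aged 4 and 8 months. The 3 muscle-bearing libraries were also the higher ones for S100A8, at 188, 173 and 370 CPM against 52.9 and 34.5 CPM, and for S100A12, at 362, 465 and 701 CPM against 141 and 71.5 CPM. Without them snout minus flank was 3.82 ± 0.70 for S100A8 and 3.85 ± 0.60 for S100A12 (log2, SE), and sole minus snout was 6.77 ± 1.09 and 6.19 ± 0.91. The 2 remaining snouts were still above every upper foot and flank library. The part of muscle in the snout levels was not tested. In sole libraries the muscle sum was 7.86 to 19.9 CPM, against 10.4 to 24.8 CPM in the flank.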

How the data were processed

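The table deposited by the authors holds estimated counts per Ensembl gene, made with Salmon from TruSeq stranded mRNA libraries, per the submitters' processing notes and the labels' protocols. For Salmon's version, the build and the annotation the entry is: not given in the sources used here. Non-whole values made up 42.2% of the table, and all were rounded before testing. Symbols matched 14821 of 19280 identifiers in the supplied name tables.

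Genes were tested with edgeR 4.0.16 (R 4.3.3; robust quasi-likelihood, TMM, filterByExpr with a count minimum of 10 and total minimum of 15) on all 20 libraries by matched site, with Benjamini-Hochberg adjusted p under 0.05, after a check on simulated data. DESeq2 1.42.0, other scalings, no filter, single sets, the deposited labels, each pig left out and the pig as a block were alternatives. The 5 pigs pair the sites by label; deviations from the site means of each set had median correlations of 0.092 to 0.326 within a pig in the first set, and 0.299 over the second set, where the deviations of its 2 pigs mirror each other. Replicates are separate animals. The limit given for 0 counts covers counting error only.

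S100A8, S100A12 and the lists were chosen with earlier results of these data known. Genes named are, per list, the up to 4 with the smallest adjusted p in sole minus flank and a fixed set of alarmin-related genes; likeness names the 8 highest r, and 4 after subtracting site means, among genes of at least 5 CPM in their highest site. EN1 was named after its values were seen.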

Additional observations from a re-analysis of the deposited data

Results flagged for a closer look

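Of 76 tested groups of 5 libraries, 4 had 1 library far from the others, close to the 1 in 20 that chance gives. A library was far if the gap to its nearest neighbour, over the whole range, was above the 95% value of Dixon's test. The groups held levels of S100A8 and S100A12, their ratio and sums of the gene lists, and all 4 flagged were list sums. The neutrophil marker sum in the snout had a gap of 0.941, with the 5-month pig at 83.9 CPM and the lowest snout at 36.3 CPM. The sum of the transcription factors in the upper foot had a gap of 0.841, with the 4-month pig at 3080 CPM and the lowest at 2099 CPM. The sum of the other S100 genes in the snout had a gap of 0.76, with the 8-month pig farthest within a range of 1136 to 1296 CPM, and the T cell marker sum in the sole had a gap of 0.722, with the 4-month pig at 11.7 CPM against a highest value of 20.8 CPM. No group of S100A8 or S100A12 values was set apart in this way.

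Of all 15735 genes tested, 0.941% were called for a difference between the sets in sole minus flank. Among the 198 listed genes tested 6 were called, and IRAK1 was the 1 among S100A8, S100A12 and the 63 genes named by rule. Its sole minus flank was larger in the second set by 1.34 ± 0.23 (log2, SE; edgeR adjusted p = 0.0237), with means of 83.9 CPM in the sole and 13.2 CPM in the flank of the second set, and 42.1 CPM in the sole and 16.8 CPM in the flank of the first. It was not called without the 4-, 6- or 5-month pig (log2 1.42, 1.34 and 1.33, adjusted p = 0.115, 0.242 and 0.200). The other 5 listed genes were named after their values were seen. The difference was larger in the second set for NFKBIZ (1.75 ± 0.33, adjusted p = 0.0264), DSC1 (1.65 ± 0.35, 0.0425), SBSN (1.28 ± 0.29, 0.0496) and DMKN (1.99 ± 0.36, 0.0247). It was smaller for FBLN1 (-3.69 ± 0.64, 0.0245). Calls of these 5 with 1 pig left out are not given. Over all genes 3, 11 and 15 calls were left without the 4-, 6- or 5-month pig.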

How the results depend on the processing

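Another scaling, DESeq2, no filter and the pig as a block left the direction of all 8 log2 differences of S100A8 and S100A12 as given; with the pig as a replicate block sole minus flank was 10.78 and 10.06, and 8950 genes were called against 7926. With each pig left out in turn the ranges were 10.17 to 11.23 and 9.60 to 10.45. Under the deposited labels volar minus flank was -0.56 for S100A8 and -0.81 for S100A12, volar minus dorsal 8.59 and 7.89, and snout minus flank -5.70 and -5.43. Without the 3 muscle-bearing snouts sole minus snout was 6.77 and 6.19, with 2311 genes called, and snout minus flank 3.82 and 3.85, with 1914 called. The first set alone called 5032 genes in sole minus flank, 3694 in sole minus upper foot, 1768 in sole minus snout and 2024 in snout minus flank, and the second alone 1981 in the last; these hold fewer libraries. Leaving out 1 pig gave 3634 to 6002 in sole minus snout, the lowest without the 5-month pig. With the deposited labels edgeR called 0 genes in each, with 1805, 3877, 992 and 1782 at an unadjusted p under 0.05. The comparison between sets called 148 genes, 964 by DESeq2, 94 with no filter, 342 with the block and 3 to 216 with 1 pig left out. Upper-quartile scaling put the median of all genes at -0.15 in sole minus flank and in sole minus upper foot, where 38.5% of calls were then higher, against 50.4%.

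Of 57 named genes called in sole minus flank, 40 kept the call in every alternative but the deposited labels, and no sign changed there. Under the deposited labels 42 kept the sign without a call, and 15 changed it: CEBPB -0.47, CRNN 5.30, DEFB1 -0.024, FCER1G 0.062, FOSL1 -0.83, IL18 -0.63, IRAK1 -0.39, KRT1 -0.51, KRT78 -1.07, NCF4 0.14, PGLYRP4 -0.51, S100A1 0.41, SMCP -0.38, TGM3 -0.17 and ZNF750 -0.46. The cause was not tested. The block changed no other named call than those of LCN2, S100A11 and SMCP. With 5 pigs, 2 of them in relabelled libraries, and no gene lengths or cell counts, levels cannot be assigned to a cell type.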
